A study of Macaca mulatta with 20 samples.

Results

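The pancreas of the rhesus macaque was compared with 4 other RNA sources on 2 types of Affymetrix array. The members were the samples labelled pancreas, 4 of 20 arrays in all, with 2 of the 10 rhesus arrays (Rhesus Macaque Genome Array) and 2 of the 10 human arrays (Human Genome U133 Plus 2.0). The other sources were cerebral cortex, immortalized fibroblasts, testis and thymus, each with 2 arrays per type. The fibroblasts are cultured connective tissue cells that were made to divide without limit, and the remaining sources are whole tissues. Every sample was untreated rhesus RNA, biotin-labelled from 5 ug of total RNA. Each RNA was split into aliquots for the 2 array types, so both types read the same RNA. Arrays of a source are technical replicates by their labels, which give neither the number nor the age of the animals. P-values below therefore measure the spread between arrays and not the spread between animals.

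The pancreas is built mainly of acinar cells, which make digestive enzymes and their helper proteins on a very large endoplasmic reticulum, pack them into zymogen granules and release them into ducts on nervous and hormonal signals. Duct cells add a bicarbonate-rich fluid and islet cells release hormones such as insulin and glucagon. A few secreted proteins take up much of the RNA of an acinar cell, and the tissue is also known for abundant ribonuclease, which makes its RNA hard to isolate whole.

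Values are log2 expression levels, 1 per probe set and array, where a probe set is the group of probes for a transcript. A gene was read from its brightest probe set on an array type, which gave 14132 genes on rhesus arrays, 19775 on human arrays and 11956 on both. The difference of a gene is its pancreas mean minus the mean of the other 4 source means, with its standard error (SE) from the 10 arrays of the type. A gene was called higher or lower in pancreas when this difference was 1 or more, or -1 or less, with a Benjamini-Hochberg adjusted p under 0.05 from limma. Levels are compared only between arrays for the same probe set, never between probe sets or array types.

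The labels held against 4 marker genes of pancreas. The carboxypeptidase gene CPA1, the trypsinogen gene PRSS2, the lipase gene PNLIP and the glucagon gene GCG lay at 13.49 or higher on each pancreas array, with GCG on human arrays lowest, and at 3.77 or lower on each other array, with PRSS2 on rhesus arrays highest. Their differences ran between 11.23 for GCG and 12.97 for PRSS2, both on human arrays. The pancreas arrays stood apart in quality. Replicate pancreas arrays differed by a standard deviation of 0.281 on rhesus arrays and 0.218 on human arrays, against 0.137 to 0.170 and 0.151 to 0.166 in the other sources. The median level of a pancreas array was 3.48 to 3.53 on rhesus and 3.05 on human arrays, against 3.24 to 3.31 and 2.90 to 2.95 elsewhere. The 3' minus 5' signal of actin, which grows as RNA breaks down, was 4.89 and 4.26 in pancreas and 2.03 to 2.79 in the other sources on rhesus arrays. On human arrays it was 2.71 and 2.10 in pancreas and 1.96 to 2.51 in the others, so there the groups overlapped. The same measure of GAPDH was 1.32 and 1.30 in pancreas, against 0.0745 to 0.517 elsewhere, on human arrays and 2.46 and 3.08, against 1.22 to 1.97, on rhesus arrays, with no overlap on either. The probe set for the 5' end of small-subunit ribosomal RNA, present on human arrays, was at 13.61 and 13.60 in pancreas and at 6.19 to 8.58 elsewhere, also without overlap. The part of RNA quality in the differences below was not tested. Controls for bacterial RNA that was not added averaged 2.76 and 2.80 in pancreas, against 2.45 to 2.66 elsewhere, on rhesus arrays and 2.69 and 2.72, against 2.55 to 2.64, on human arrays. Where a gene lay near these levels in the other sources, its difference is not an exact fold. In RNA from a whole tissue, fewer cells of a type and less RNA per cell cannot be told apart.

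Far more genes were lower than higher in pancreas as deposited, but the higher genes were further from the other sources. On rhesus arrays 1386 genes (9.81%) were higher and 3362 (23.8%) lower, and on human arrays 990 (5.01%) were higher and 3113 (15.7%) lower. These shares of all genes are the background for the counts of each gene list below. A difference of 5 or more was reached by 115 higher genes and 14 lower genes on rhesus arrays, and by 71 and 8 on human arrays. No lower gene reached 8, against 37 higher genes on rhesus and 30 on human arrays. Of the genes on both array types, 469 (3.92%) were higher on both and 1491 (12.5%) lower on both. A gene was called higher than every source when all 4 pairwise differences were called. This held for 565 genes (4%) on rhesus arrays, 447 (2.26%) on human arrays and 200 (1.67%) on both, and 227 genes (1.9%) were lower than every source on both.

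The excess of lower genes depended on the scaling of the arrays. After quantile normalization, which gives the 10 arrays of a type the same distribution of values, 2154 genes (15.2%) were higher and 2256 (16%) lower on rhesus arrays. On human arrays 1822 (9.21%) were then higher and 2020 (10.2%) lower, and on both types together 835 (6.98%) were higher and 874 (7.31%) lower. The shares of each single type are the background for list counts after quantile normalization. The higher calls mostly survived this step, since 38 of 1386 on rhesus arrays and 23 of 990 on human arrays were no longer called. Of the lower calls, 1202 of 3362 and 1146 of 3113 were no longer called. Not 1 gene was called the opposite way after the step. The median difference of all genes was -0.10 on rhesus and 0.03 on human arrays as deposited, and -0.0075 and 0.0059 after quantile normalization.

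The 20 genes with the largest increase on both array types, digestive enzymes left out, were led by proteins of the acinar secretory pathway. They were ranked by the smaller of the 2 differences, which ran between 6.27 and 13.17 on rhesus arrays and between 6.26 and 11.96 on human arrays. The adjusted p of limma was at most 2.87e-08 on rhesus and 1.14e-05 on human arrays. Replicate pancreas arrays lay at most 0.272 and 0.367 apart for these genes. All 20 were higher than every source on both types, and all 20 were called after quantile normalization too. The other 8 arrays were all under 4 for 15 of the 20 genes on rhesus arrays and 16 on human arrays. Among the exceptions were EPCAM, highest of the other sources in testis, and CLDN10, highest in cerebral cortex.

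**Figure D1:**
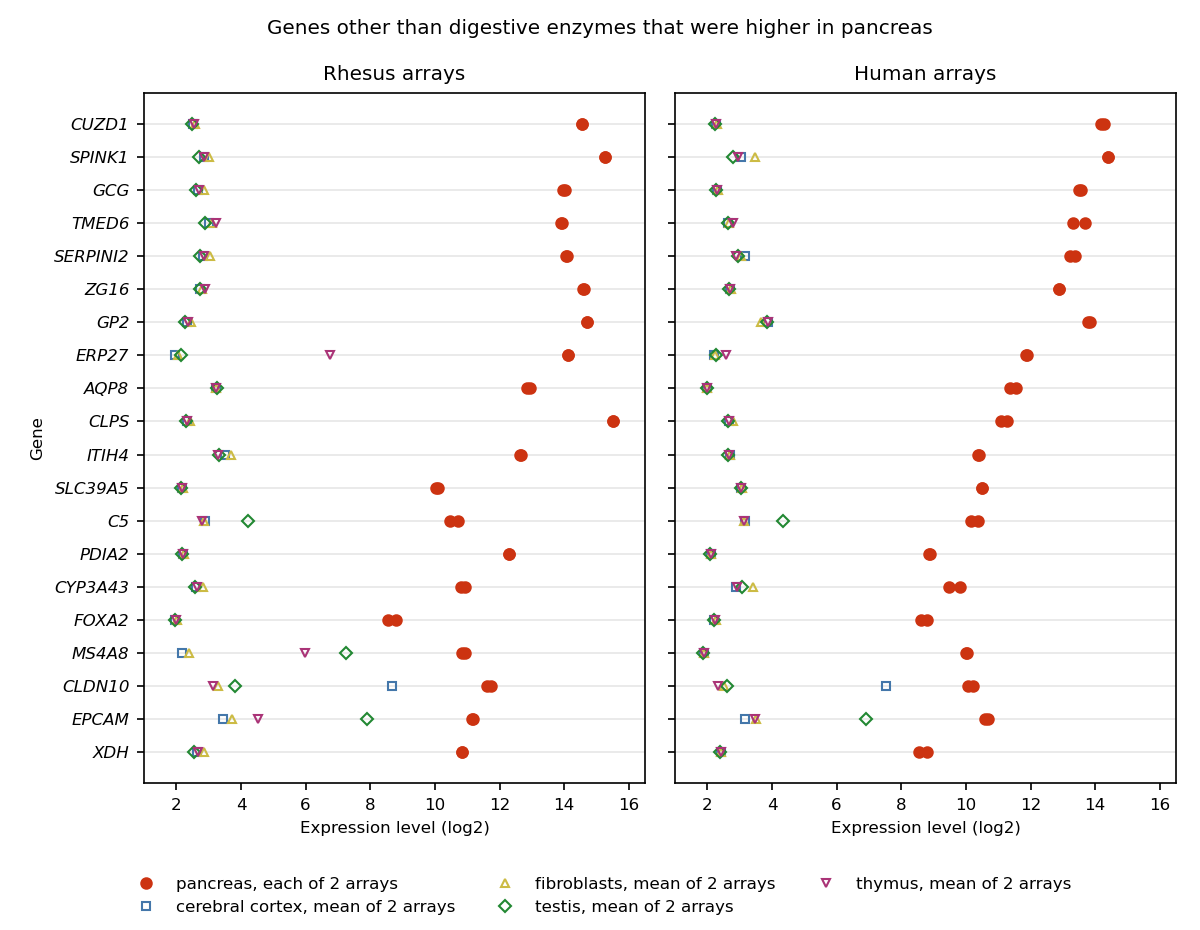
Log2 levels (x axis) of the 20 genes other than digestive enzymes that were highest in pancreas on both array types (y axis), with each of the 2 pancreas arrays and the mean of each other source as points. The pancreas points lie far to the right of the other sources for each gene, and the nearest other source is testis for EPCAM and cerebral cortex for CLDN10 on both array types.

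Zymogen granule proteins were among these genes. CUZD1, a membrane protein of the granule, was at 14.55 and 14.54 in pancreas on rhesus arrays and at 2.49, 2.53 and 2.59 (lowest, median and highest) on the 8 other arrays. The human arrays had it at 14.28 and 14.17 in pancreas, against 2.23, 2.27 and 2.29. The 2 pancreas arrays were close to each other and far above every other array, with differences of 12.01 (SE 0.02) and 11.96 (SE 0.03). GP2, the main glycoprotein of the granule membrane, was at 14.70 and 14.72 in pancreas and at 2.25, 2.34 and 2.51 elsewhere on rhesus arrays. On human arrays GP2 was at 13.83 and 13.79 in pancreas, against 3.44, 3.87 and 3.90. Its differences were 12.35 and 9.99, with no overlap of the groups. ZG16, a lectin of the granule, differed by 11.80 and 10.18.

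Inhibitors and cofactors of the digestive enzymes rose alongside. SPINK1, which blocks trypsin that becomes active too early, was at 15.27 and 15.28 in pancreas and at 2.69, 2.86 and 3.03 elsewhere on rhesus arrays. The human arrays had it at 14.41 and 14.40 in pancreas, against 2.78, 2.96 and 4.03, where the highest other value belonged to fibroblasts. The groups were far apart on both types, with differences of 12.41 (SE 0.03) and 11.35 (SE 0.27). SERPINI2, a serpin, differed by 11.21 and 10.29. CLPS encodes colipase, which anchors pancreatic lipase to fat droplets. It was at 15.51 and 15.52 in pancreas, against 2.29, 2.33 and 2.43 elsewhere on rhesus arrays. On human arrays CLPS was at 11.09 and 11.26 in pancreas, against 2.65, 2.66 and 2.90. It was the highest non-enzyme difference on rhesus arrays at 13.17, but was 8.49 on human arrays.

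Proteins that fold or carry the secreted cargo also stood out. TMED6, of the p24 family of cargo receptors, differed by 10.86 and 10.82. ERP27, a protein of the endoplasmic reticulum that binds a disulfide isomerase, was at 14.12 on both pancreas arrays and reached 6.84 in thymus on rhesus arrays. It still differed by 10.89 there and by 9.55 on human arrays. PDIA2, the disulfide isomerase of the pancreas, was at 12.29 and 12.28 in pancreas and at 2.16 to 2.25 elsewhere on rhesus arrays, and at 8.85 and 8.89, against 2.09 to 2.13, on human arrays. Its differences were 10.08 and 6.76.

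The whole list of acinar proteins other than digestive enzymes is not limited to secreted proteins. It also holds the isomerase PDIA2, ERP27 of the endoplasmic reticulum and the membrane protein CUZD1. Of its measured members 13 of 15 were higher on rhesus arrays and 14 of 17 on human arrays, with medians of 10.86 and 8.49. The counts were the same after quantile normalization. Of these members, 11 on rhesus and 14 on human arrays were higher than every source. The granule protein syncollin, SYCN, was among the smaller increases at 3.19 and 1.78. The polymeric immunoglobulin receptor gene PIGR was called on human arrays alone at 1.41, where the pancreas arrays were 4.12 and 2.84. The lipocalin gene LCN2 was called on rhesus arrays alone at 2.17, against 0.44 on human arrays. The lectin gene REG3G lay near the unspiked controls and differed by 0.31 and 0.23.

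**Figure D2:**
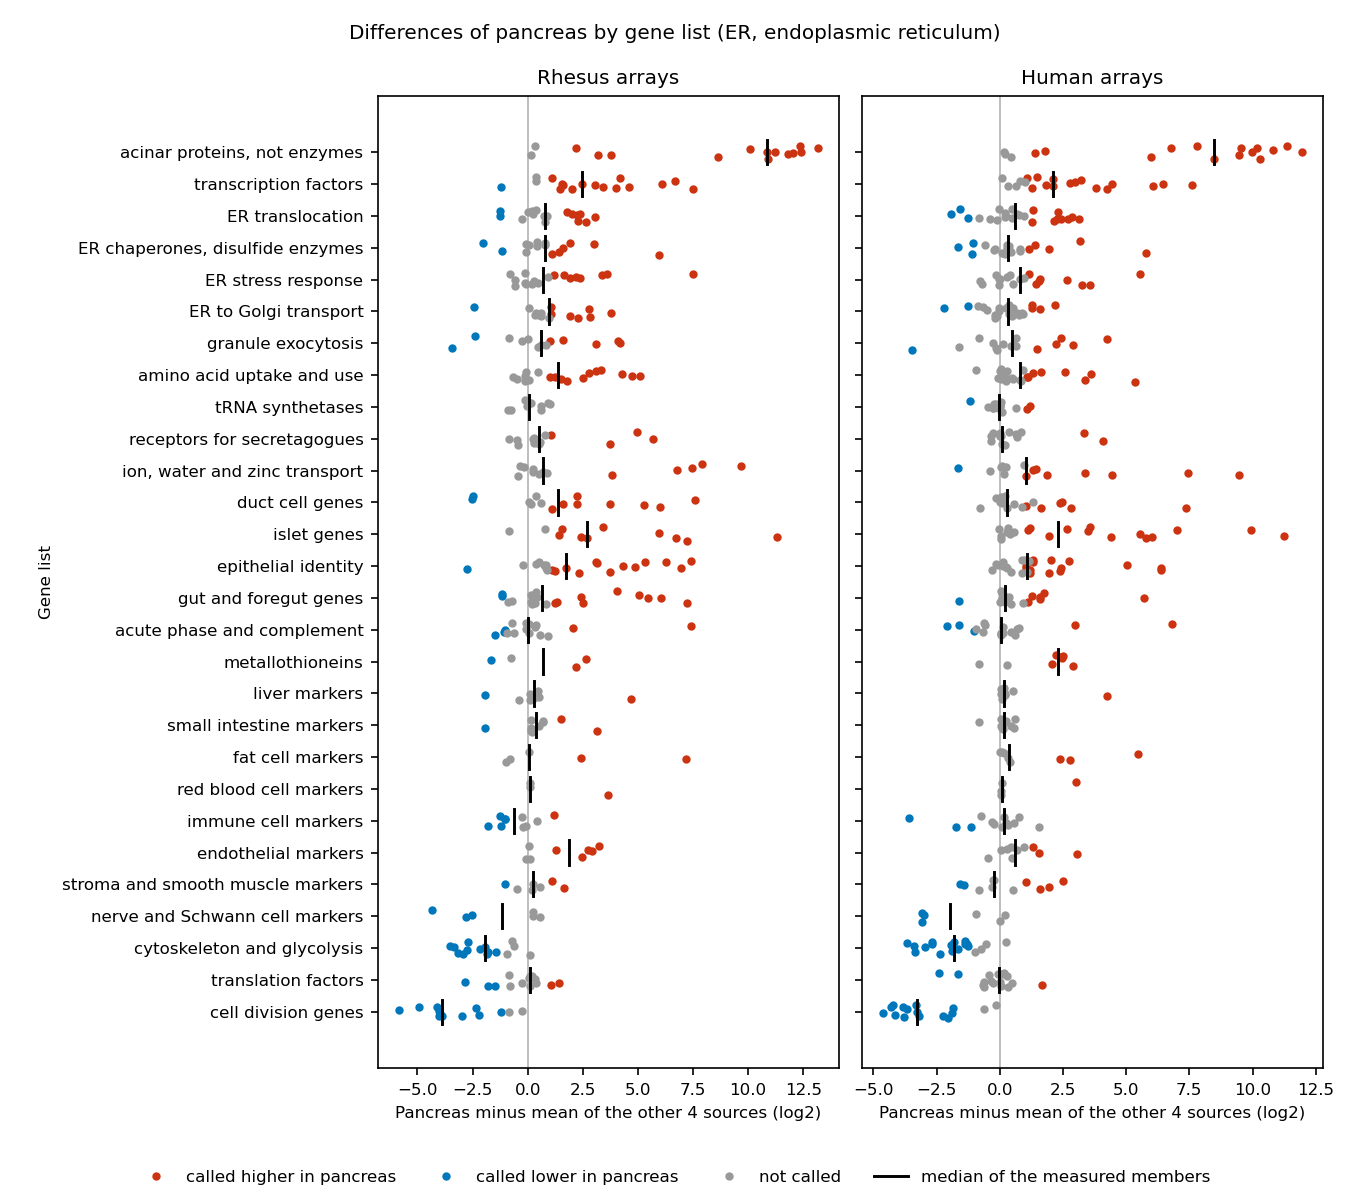
Difference of pancreas from the mean of the other 4 sources (x axis, log2) for the measured members of each of 28 gene lists (y axis), with colour for the call and a bar at the median. Acinar proteins reach a median of 10.86 on rhesus and 8.49 on human arrays, while cell division genes lie at -3.89 and -3.29.

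The digestive enzymes, given here only for scale, were higher for 11 of 13 measured genes on rhesus and 16 of 18 on human arrays, with medians of 12.18 and 11.88. The pancreatic ribonuclease RNASE1 went the other way. It was at 2.95 and 3.12 in pancreas and at 2.58, 4.45 and 8.87 elsewhere on its 1 rhesus probe set, and at 2.83 on both pancreas arrays, against 2.64, 3.65 and 6.41, on its brighter human probe set. In pancreas both sets thus lay near the unspiked controls, and the called differences were -2.10 and -1.31. The other human set for RNASE1 differed by 0.06 and was not called.

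Several of the 20 genes are known from plasma proteins or from metabolism in other organs. ITIH4, a plasma protein of the inter-alpha-trypsin inhibitor family, was at 12.62 and 12.65 in pancreas and at 3.20, 3.44 and 3.80 elsewhere on rhesus arrays. The human arrays had it at 10.36 and 10.41 in pancreas, against 2.62, 2.68 and 2.71. Both types separated the groups, with differences of 9.18 and 7.71. Complement C5 was at 10.72 and 10.48 in pancreas, against 2.73, 2.86 and 4.32 elsewhere on rhesus arrays, and at 10.15 and 10.36, against 2.89, 3.37 and 4.79, on human arrays. Testis held the highest other values of C5 on both types, and the differences were 7.41 and 6.81. The cytochrome P450 gene CYP3A43 differed by 8.20 and 6.58. XDH, xanthine dehydrogenase, makes urate at the end of purine breakdown and differed by 8.15 and 6.26. MS4A8, of a family of membrane proteins with 4 passes, differed by 6.45 on rhesus arrays, where testis and thymus also held signal (up to 7.34), and by 8.13 on human arrays, where no other array exceeded 1.90.

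Water and metal transport were represented by AQP8 and SLC39A5. AQP8, a water channel, was at 12.85 and 12.96 in pancreas and at 3.20, 3.21 and 3.33 elsewhere on rhesus arrays. The human arrays had it at 11.36 and 11.55 in pancreas, against 1.97, 1.98 and 2.00. The differences were 9.67 and 9.47. SLC39A5, which brings zinc into cells, was at 10.10 and 10.04 in pancreas, against 2.13, 2.19 and 2.22, on rhesus arrays and at 10.51 and 10.49, against 3.04, 3.05 and 3.07, on human arrays. Its differences were 7.88 and 7.44, and its replicates were close to each other. SLC30A2, which moves zinc into vesicles and granules, differed by 7.46 and 3.38, and SLC16A10, a carrier of aromatic amino acids, by 6.76 and 4.46. Of the whole list of ion, water and zinc transport, 5 of 13 measured genes were higher on rhesus arrays, and 8 of 15 were higher and 1 lower on human arrays. The lower gene was the sodium, potassium and chloride carrier SLC12A2 at -1.66.

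Transcription factors of the pancreas were mostly higher, at smaller differences than the acinar proteins. Of 17 measured on rhesus arrays 14 were higher and 1 lower, and of 20 on human arrays 15 were higher. After quantile normalization 13 and 16 were higher, with no lower one. FOXA2, a factor of endoderm organs, was at 8.54 and 8.81 in pancreas and at 1.96, 1.98 and 2.04 elsewhere on rhesus arrays. On human arrays FOXA2 was at 8.78 and 8.62 in pancreas, against 2.18, 2.24 and 2.27. The differences were 6.68 and 6.47. NR5A2, a nuclear receptor that drives acinar enzyme genes, was at 10.37 on both rhesus pancreas arrays, against 2.59, 2.79 and 3.70, and at 9.08 and 8.72, against 2.79, 2.83 and 2.94, on human arrays. Both groups were apart on both types, by 7.49 and 6.06. ONECUT1 differed by 6.08 and 4.26, and RFX6, a factor of islet cells, by 4.20 and 4.44. The acinar factor RBPJL, measured on human arrays only, was at 10.11 and 9.95 in pancreas, against 2.35, 2.40 and 2.61, a difference of 7.61.

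Factors shared with other sources overlapped with them. GATA6 differed by 4.03 and 3.80 and was as high in another source, with an upper other array of 9.76 beside 9.36 and 9.64 in pancreas on rhesus arrays. PAX6, SOX9 and INSM1 were higher than the mean of the other sources on both types but not than every source. HNF4G was called in opposite directions on its brightest probe sets, at -1.23 on rhesus and 2.09 on human arrays. The other 3 rhesus probe sets of HNF4G were all called higher, at 1.20, 1.35 and 4.43, though the pancreas arrays of the smallest were 2.58 and 4.50.

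The machinery that moves new proteins into the endoplasmic reticulum was partly higher. Of 17 measured genes 7 were higher and 2 lower on rhesus arrays, and of 24 on human arrays 9 were higher and 3 lower. SSR3, a subunit of the translocon-associated complex, was at 12.35 and 12.38 in pancreas and at 8.10, 8.87 and 11.46 elsewhere on rhesus arrays. On human arrays SSR3 was at 11.76 and 11.74, against 7.60, 8.50 and 10.93. Its differences were 3.06 and 2.86, and no other array reached a pancreas array. SSR4 of the same complex differed by 2.66 and 2.44, the channel gene SEC61A1 by 2.35 and 3.15, and SRPRA, the receptor for the signal recognition particle, by 2.24 and 2.26. SEC61A1 was not higher than every source on either type, with fibroblasts at 10.22 and 8.38 beside 10.38 and 8.81 in pancreas. As deposited, 4 of 17 genes of the list on rhesus and 3 of 24 on human arrays were higher than every source. STT3B, a catalytic subunit of the oligosaccharyltransferase, was lower by -1.25 and -1.27, a call lost on both types after quantile normalization (-0.71 and -0.46). RPN2, DAD1 and STT3A of the same complex were not called on either type as deposited, and STT3A was called higher on both after quantile normalization (1.46 and 1.05). After quantile normalization 10 of 17 and 15 of 24 genes of the list were higher, beside 15.2% and 9.21% of all genes. Without pancreas replicate 2 the rhesus count of lower genes was 1.

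Chaperones and disulfide enzymes were partly higher as deposited. On rhesus arrays 6 of 15 were higher and 2 lower, beside 9.81% and 23.8% of all genes. On human arrays 5 of 20 were higher and 3 lower, beside 5.01% and 15.7% of all genes. Higher than every source were 1 of 15 on rhesus and 2 of 20 on human arrays. After quantile normalization 8 of 15 were higher and 1 lower on rhesus arrays, and 11 of 20 were higher and 0 lower on human arrays. Of all genes 15.2% and 9.21% were then higher. ERO1B, a disulfide oxidase of secretory cells, was at 10.95 and 10.88 in pancreas and at 4.13, 4.67 and 6.33 elsewhere on rhesus arrays. On human arrays it was at 11.38 and 11.64, against 4.33, 5.95 and 6.64. The groups did not overlap, and the differences were 5.97 and 5.79. Its broadly expressed relative ERO1A went the other way by -1.17 and -1.63, and both calls were lost after quantile normalization. P4HB, the general disulfide isomerase, differed by 3.01 and 3.18, with fibroblasts at 12.54 and 10.95 beside 12.93 and 11.76 in pancreas. HSP90B1, a chaperone, differed by -2.01 and -1.12, and the human call was lost after quantile normalization. SIL1 was higher by 1.58 and 1.17, but its human call was lost without pancreas replicate 3 (0.50), which left 3 of 20 genes higher. HSPA5, the central chaperone of this compartment, was measured on human arrays alone and differed by 0.38.

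Genes of the endoplasmic reticulum stress response were higher or not called. On each array type 8 were higher, of 18 measured on rhesus and 19 on human arrays. DERL3, which helps to pull misfolded proteins out of the endoplasmic reticulum, was at 10.31 and 10.55 in pancreas and at 2.93, 2.93 and 2.95 elsewhere on rhesus arrays. On human arrays DERL3 was at 9.21 and 9.38, against 3.52, 3.78 and 3.87. Its differences were 7.50 and 5.54. ASNS, asparagine synthetase, was at 12.38 and 12.42 in pancreas, against 7.67, 8.97 and 9.63, on rhesus arrays and at 11.62 and 11.64, against 6.54, 8.09 and 9.43, on human arrays. It differed by 3.60 and 3.57, above each other array. XBP1, a factor that expands the secretory apparatus, was at 12.65 and 12.87 in pancreas, against 7.59, 9.55 and 10.82, on rhesus arrays and at 9.42 and 8.94, against 5.70, 6.62 and 7.10, on human arrays, and differed by 3.35 and 2.67. HERPUD1 differed by 2.38 and 1.59. The stress factor ATF4 and DERL2 were also called higher on both types. DDIT3, TRIB3 and ATF3, which are known for acute or lethal stress, were not called on either type and differed by -0.77 to -0.02.

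Transport to the Golgi and granule release held more higher than lower genes. Beside the counts as deposited, 9.81% of all genes were higher and 23.8% lower on rhesus arrays, and 5.01% and 15.7% on human arrays. Between endoplasmic reticulum and Golgi, 7 of 15 genes were higher and 1 lower on rhesus arrays, against 4 and 2 of 24 on human arrays. After quantile normalization the higher counts were 11 of 15 and 14 of 24, beside 15.2% and 9.21% of all genes. The cargo receptors TMED3 and TMED10 differed by 2.78 and 2.20 and by 1.93 and 1.28, and MCFD2 by 2.30 and 1.58. SEC23A, a coat subunit of the transport vesicles, was at 7.28 and 7.20 in pancreas and at 8.87, 9.42 and 11.11 elsewhere on rhesus arrays. On human arrays it was at 7.33 and 6.98, against 8.51, 8.96 and 11.03. Every pancreas array was below every other array, and the differences of -2.44 and -2.20 were also called after quantile normalization. Of the genes of granule exocytosis 5 of 13 were higher and 2 lower on rhesus arrays, and 5 of 16 were higher and 1 lower on human arrays. SYTL1, which ties granules to the small GTPase Rab27, was higher by 4.19 and 4.23 and its relative SYTL2 lower by -3.44 and -3.47. The pancreas arrays of SYTL2 were 5.36 and 3.72 on rhesus and 2.76 and 5.32 on human arrays, so its replicates disagreed. Without pancreas replicate 4 the human count of lower genes was 2. RAB26 differed by 4.08 and 2.88, with cerebral cortex at 8.20 beside 8.41 in pancreas on rhesus and 7.23 beside 6.55 on human arrays. VAMP8, a membrane fusion protein of granules, differed by 3.11 and 2.21. Thymus exceeded pancreas for VAMP8, at 11.2 beside 10.8 on rhesus and 10.6 beside 9.31 on human arrays. Of the exocytosis list 1 of 13 on rhesus and 1 of 16 on human arrays were higher than every source.

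Genes of amino acid supply and creatine synthesis were higher in part. Of the list, 11 of 18 were higher on rhesus and 8 of 21 on human arrays. GATM and GAMT encode both steps of creatine synthesis. GATM was at 13.82 and 13.78 in pancreas and at 3.56, 9.15 and 12.89 elsewhere on rhesus arrays, and at 12.37 and 12.29, against 2.26, 7.30 and 10.91, on human arrays. GAMT was at 10.96 and 11.09 in pancreas, against 4.39, 7.17 and 8.07, on rhesus arrays and at 8.96 and 9.13, against 3.99, 5.87 and 6.83, on human arrays. Neither gene overlapped with the other sources, and the differences were 5.09 and 5.36 for GATM and 4.30 and 3.38 for GAMT. GNMT, glycine N-methyltransferase, differed by 3.34 and 2.56, with human pancreas arrays at 5.74 and 3.90. The glutamine carrier SLC38A5 differed by 2.53 and 3.60. The transfer RNA synthetases, which load amino acids for translation, were a separate list. Of 11 measured on rhesus arrays 0 were called, with 5 higher and 2 lower at an unadjusted p under 0.05 (limma) and a median of 0.07. Among the members ranked first by the smaller of the 2 absolute differences, YARS1 and HARS1 passed as higher by adjusted p alone (0.9986 and 0.588). FARSB and GARS1 passed as lower (-0.761 and -0.882), and the remaining members are not given here. A call also needs a difference of 1 or more, or -1 or less, which these genes missed. On human arrays 2 of 17 were higher and 1 lower, with a median of -0.03. After quantile normalization 4 of 11 and 3 of 17 were higher, with medians of 0.70 and 0.66. The amino acid list then had 10 of 18 and 12 of 21 higher, with medians of 2.03 and 1.58. Of all genes 15.2% and 9.21% were then higher. The difference between the lists was not tested. Without pancreas replicate 2 the rhesus count was 2 higher, without cerebral cortex replicate 2, testis replicate 1 or thymus replicate 1 it was 1, and without pancreas replicate 3 the human count was 1 higher.

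The receptor list holds receptors that tell acinar cells to secrete and others for further hormones. Of its measured members 4 of 13 were higher on rhesus arrays, beside 9.81% of all genes. On human arrays 2 of 15 were higher, beside 5.01% of all genes. The medians were 0.53 and 0.07. CHRM3, the muscarinic receptor for acetylcholine, differed by 3.74 and 4.08 and was exceeded by another source on both types (highest other arrays 8.74 and 10.56, beside 8.18 and 8.32 and 9.29 and 9.20 in pancreas). The cholecystokinin receptor CCKAR was at 2.18 and 2.45 in pancreas on rhesus arrays and at 2.39 and 2.39 on human arrays, near the unspiked controls, and differed by 0.22 and 0.05. The secretin receptor SCTR was at 8.32 and 8.19 in pancreas, against 2.45, 2.54 and 2.69, on rhesus arrays and at 3.31 and 3.53, against 2.66, 2.75 and 2.93, on human arrays. It was thus called on rhesus arrays alone, at 5.69 against 0.66. CCKAR and SCTR were chosen after their values were seen.

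Duct cell genes were higher in part. On rhesus arrays 8 of 14 were higher and 2 lower, and on human arrays 6 of 19 were higher. SLC4A4, which brings bicarbonate into duct cells, was at 10.21 and 10.47 in pancreas and at 2.88, 3.17 and 8.12 elsewhere on rhesus arrays. On human arrays it was at 12.56 and 12.64, against 2.68, 4.08 and 10.15. The pancreas arrays were above each other array, and the differences were 6.01 and 7.37. The chloride channel CFTR differed by 5.26 and 2.80, the mucin MUC1 by 7.61 and 2.45 and osteopontin SPP1 by 3.73 and 2.38. Other duct genes behaved differently: keratin KRT7 was at 2.32 and 2.30 in pancreas, against 2.10, 3.98 and 8.97, and differed by -2.48 on rhesus and -0.79 on human arrays. The trefoil genes TFF2 and TFF3 were not called on either type. KRT7, TFF2 and TFF3 were chosen after their values were seen.

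Genes of epithelial junctions and of gut epithelium accompanied the acinar genes. Of the epithelial list 13 of 21 were higher and 1 lower on rhesus arrays, and 14 of 27 were higher on human arrays. CLDN10, a claudin, was at 11.60 and 11.73 in pancreas and at 3.10, 3.61 and 8.79 elsewhere on rhesus arrays, and at 10.07 and 10.21, against 2.29, 2.60 and 7.73, on human arrays. Cerebral cortex held its highest other values, and the differences were 6.93 and 6.39. EPCAM, an adhesion molecule of epithelia, was at 11.14 and 11.18 in pancreas, against 3.38, 4.14 and 7.94, on rhesus arrays and at 10.69 and 10.58, against 3.12, 3.47 and 7.02, on human arrays. Testis was the next source, and EPCAM differed by 6.27 and 6.37. The junction genes OCLN and CLDN7 differed by 4.33 and 2.38 and by 4.87 and 2.02. Of the gut list 9 of 20 were higher and 2 lower on rhesus arrays, and 6 of 19 higher and 1 lower on human arrays, and the lower calls were lost after quantile normalization. Without pancreas replicate 2 the rhesus count of lower genes was 1. The membrane protease HPN differed by 6.06 and 5.72, FXYD2, a regulator of the sodium pump, by 5.04 and 1.61, FXYD3 by 2.43 and 1.58 and LGALS4 by 5.48 and 1.29. The human call of LGALS4 was lost without pancreas replicate 4 (0.92).

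Islet genes were also higher, with 9 of 11 on rhesus and 13 of 20 on human arrays. GCG, which encodes glucagon, differed by 11.29 and 11.23. TM4SF4, a membrane protein of islet cells, was at 9.01 and 8.81 in pancreas and at 2.12, 2.18 and 2.30 elsewhere on rhesus arrays, and differed by 6.72 there and 6.02 on human arrays. SCGN, a calcium sensor of endocrine cells, differed by 7.22 and 4.40. TTR, transthyretin, was measured on human arrays alone, at 12.39 on both pancreas arrays, against 4.20, 5.38 and 6.21, and somatostatin, SST, differed by 5.55 there.

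Of the metallothioneins, which bind zinc and copper, 6 of 8 were higher on human arrays, beside 5.01% of all genes, with a median of 2.32. As deposited, 0 of these 8 were higher than every source, and 2 were after quantile normalization. On rhesus arrays 2 of 4 were higher and 1, MT3, was lower by -1.65. MT2A was at 14.05 and 14.07 in pancreas and at 9.16, 10.75 and 14.91 elsewhere on rhesus arrays, so 1 source exceeded pancreas. It differed by 2.65 and 2.22, and MT1E by 2.19 and 2.48. Of all genes 9.81% were higher and 23.8% lower on rhesus arrays, and 5.01% and 15.7% on human arrays. Among acute phase and complement genes there were 2 of 16 higher and 3 lower on rhesus and 2 of 18 higher and 3 lower on human arrays. The higher genes were C5 and the apolipoprotein gene APOH, which differed by 2.05 and 2.97. Ceruloplasmin, CP, was lower by -1.09 and -1.03, and its human call was lost without pancreas replicate 4 (-0.87).

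Markers of other tissues that a piece of pancreas could hold were compared in the same way. The shares of all genes were 9.81% higher and 23.8% lower on rhesus arrays, and 5.01% and 15.7% on human arrays. Of liver markers, 1 of 9 was higher and 1 lower on rhesus arrays and 1 of 11 was higher on human arrays. The rhesus ones were CYP3A4, a cytochrome P450, at 4.69 and AMBP at -1.92. The human one was albumin, ALB, at 7.33 and 7.77 in pancreas and at 3.25 to 3.41 elsewhere, while the fibrinogen genes FGA, FGB and FGG and the liver protein AHSG lay at 3.63 or lower on each pancreas array and were not called. Of small intestine markers 2 of 10 were higher and 1 lower on rhesus arrays. On human arrays 0 of 10 were called, with 8 higher and 1 lower at an unadjusted p under 0.05 (limma). A call also needs a difference of 1 or more, or -1 or less. The higher rhesus calls were sucrase-isomaltase, SI, at 3.15 and the glucose carrier SLC5A1, whose call was lost without pancreas replicate 1 (0.84), and the lower was APOA1 at -1.95. The other 7 genes of the list were not called on either type. Among fat cell markers FABP4 and CIDEA were higher on both types, by 7.19 and 5.47 and by 2.42 and 2.37, whereas adiponectin, ADIPOQ, differed by -0.97 and 0.15 and leptin, LEP, by -0.82 and 0.10. The summed level of the fat list was 12.7 to 12.8 in pancreas and 8.47 to 11.2 in the other sources on rhesus arrays, and 9.42 to 9.53 against 5.67 to 7.88 on human arrays, on the log2 scale. Endothelial markers were higher for 5 of 8 and 3 of 10, with EMCN at 3.23 and 3.04 and CDH5 at 2.45 and 1.54. Without pancreas replicate 4 the human count was 5. Immune cell markers had 5 of 10 genes lower and 1 higher on rhesus arrays, beside 23.8% of all genes lower, with a median of -0.63. On human arrays 3 of 15 were lower, near the 15.7% of all genes, with a median of 0.18. PTPRC was lower on both types, by -1.82 and -3.60, in a comparison that includes thymus, and the rhesus count was 3 without pancreas replicate 1. Red blood cell markers had 1 higher gene of 3 and of 4, the globin HBB at 3.62 and 3.02, with ALAS2 and AHSP not called. Stroma and smooth muscle markers were mixed, with 2 of 7 higher and 1 lower on rhesus arrays and 4 of 11 higher and 2 lower on human arrays. COL1A2 was higher by 1.09 and 1.05, and its human call was lost without pancreas replicate 4 (0.96), which left 2 of 11 higher. Without pancreas replicate 1 no rhesus gene of the list was lower. Nerve markers were lower for 3 of 6 on each type, among them UCHL1 at -4.33 and -2.98. The summed level of the liver list on human arrays was 8.05 to 8.29 in pancreas, against 6.53 to 6.68 elsewhere, that of the red blood cell list 9.54 to 9.62, against 5.05 to 8.17, and that of the endothelial list 8.35 to 9.09, against 7.07 to 9.37. On rhesus arrays those sums were 7.97 to 8.29, against 6.11 to 11.2, for liver, 6.52 to 7.20, against 4.24 to 4.79, for red blood cells and 9.77 to 9.88, against 6.44 to 10.2, for endothelium. The part of such cells in the differences was not tested.

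**Figure D3:**
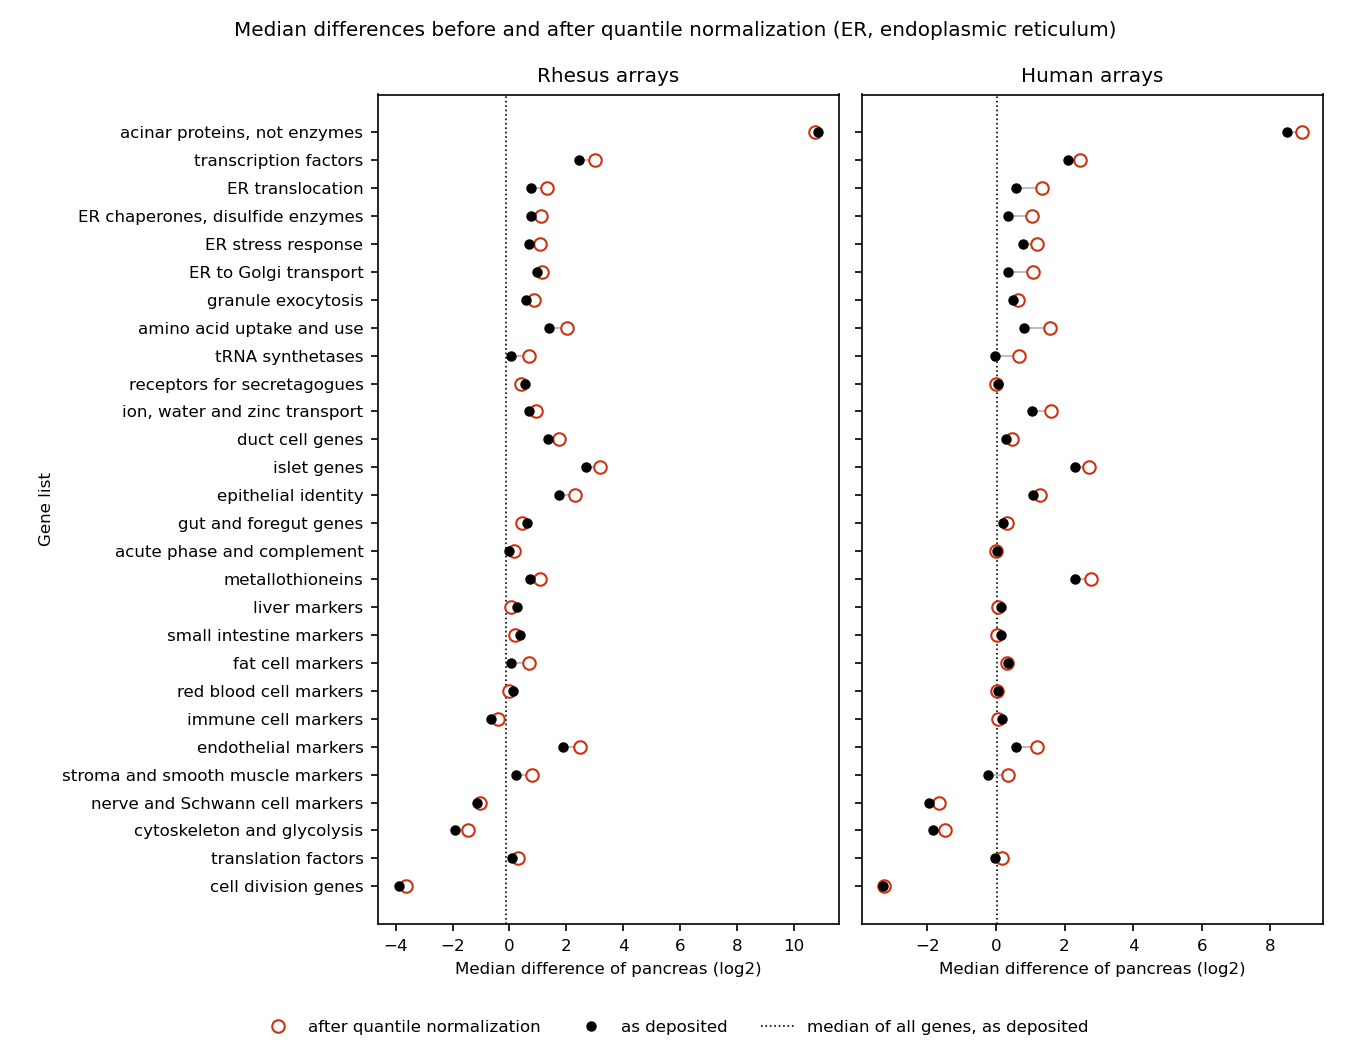
Median difference of pancreas (x axis, log2) for each of 28 gene lists (y axis) after quantile normalization (open circles) and as deposited (filled circles), with the median of all genes as deposited as a dotted line. The step moved the median of the translocation list to 1.31 on rhesus and 1.33 on human arrays, against 0.77 and 0.58 as deposited, and left cell division genes at -3.63 and -3.26.

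The 10 genes with the largest decrease on both array types included genes known from neurons, T cells and dividing cells. Their differences ran between -6.23 and -4.41 on rhesus arrays and between -6.42 and -4.21 on human arrays, with adjusted p of limma at most 1.89e-05 and 5.74e-05. All 10 were called after quantile normalization. Replicate pancreas arrays differed by more than 1 for 2 of the 10 genes on rhesus and 3 on human arrays. CHN1, a signalling protein of neurons, was at 3.30 and 3.70 in pancreas and at 4.47, 9.81 and 14.59 elsewhere on rhesus arrays. On human arrays it was at 3.47 on both pancreas arrays, against a lowest of 4.63 and a median of 9.22. Cerebral cortex was highest and thymus lowest of the others, and the differences were -6.23 and -5.81. BASP1, a protein of nerve endings, differed by -5.04 and -6.42, and KCNA3, a potassium channel of T cells, by -5.48 and -4.81.

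A decrease against every source was seen for 6 of the 10 genes on rhesus and 7 on human arrays. EPB41L2, which links the cytoskeleton to the cell membrane, was at 3.83 and 3.94 in pancreas and at 7.35, 8.22 and 9.84 elsewhere on rhesus arrays. On human arrays EPB41L2 was at 2.17 and 2.57, against 6.69, 7.39 and 9.06. No other source came near the pancreas arrays, and the differences were -4.51 and -5.27. ZWILCH, of the checkpoint at the kinetochore, was at 3.03 and 3.02 in pancreas, against 5.80, 7.74 and 8.50, on rhesus arrays and at 3.08 and 3.23, against 5.91, 8.07 and 8.75, on human arrays. It differed by -4.41 and -4.59. PTTG1, which guards the separation of chromosomes, differed by -5.25 and -4.67, and its pancreas arrays were 4.17 and 5.26 on rhesus and 4.96 and 3.80 on human arrays. PFKP, a phosphofructokinase of glycolysis, differed by -5.18 and -4.30. CDH11, a cadherin of connective tissue, differed by -4.58 and -4.80 and ARPP21 by -4.42 and -5.28. Neither CDH11 nor ARPP21 was lower than every source on either array type.

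**Figure D4:**
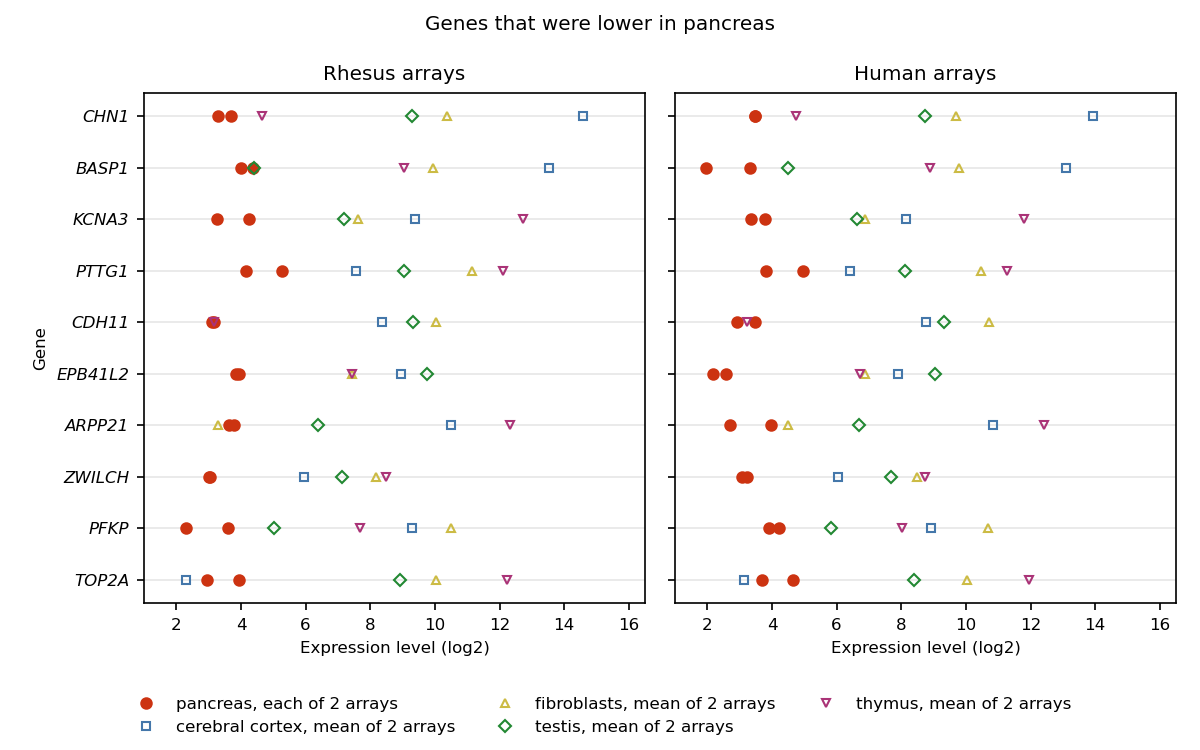
Log2 levels (x axis) of the 10 genes lowest in pancreas on both array types (y axis), with each of the 2 pancreas arrays and the mean of each other source as points. EPB41L2, KCNA3 and ZWILCH lie left of every other source, while TOP2A in cerebral cortex and CDH11 in thymus lie near the pancreas points.

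Cell division genes were lower for 11 of 13 measured members on rhesus and 14 of 16 on human arrays, with medians of -3.89 and -3.29. Of all genes 23.8% on rhesus and 15.7% on human arrays were lower. Of the 13 members on both types 10 were lower on both, beside 12.5% of all shared genes. Fibroblasts, testis and thymus all hold dividing cells. TOP2A, the topoisomerase of dividing cells, was at 2.95 and 3.93 in pancreas and at 2.28, 9.50 and 12.25 elsewhere on rhesus arrays, with cerebral cortex lowest. It differed by -4.93 and -4.21, the cyclins CCNB2 and CCNA2 by -4.04 and -4.15 and by -3.92 and -3.32, and the replication gene MCM2 by -4.02 and -3.78.

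Genes often used as a steady reference were lower as well. Of the cytoskeleton and glycolysis list 11 of 15 were lower on rhesus and 15 of 19 on human arrays, with medians of -1.92 and -1.82. Tubulin TUBB was at 8.18 and 8.69 in pancreas and at 11.13, 11.87 and 12.32 elsewhere on rhesus arrays, and at 8.61 and 8.41, against 11.19, 11.94 and 12.36, on human arrays. No array of another source overlapped, and the differences were -3.36 and -3.35. The actin-binding gene PFN1 differed by -2.71 and -3.67 and pyruvate kinase PKM by -3.16 and -1.25. After quantile normalization 11 of 15 and 12 of 19 of the list were called lower, and the human calls of PKM, LDHA and HPRT1 were lost. Translation factors had medians of 0.09 and -0.02, 2 of 14 higher and 3 lower on rhesus arrays and 1 of 18 higher and 2 lower on human arrays. Of all genes 9.81% were higher and 23.8% lower on rhesus arrays, and 5.01% and 15.7% on human arrays. The translation factor EIF2S3 was lower on both types, by -1.78 and -2.39.

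Probe sets for close relatives, such as PRSS2, the metallothioneins and CYP3A43, may also bind transcripts of the other members of their families, which was not tested. Both array types read the same RNA, and many genes still differed between them. The contrast of the pancreas differences, human minus rhesus, was called for 2612 of the 11956 shared genes. Of shared genes, 207 were higher on human arrays alone and 712 on rhesus arrays alone, and 750 and 1448 were lower on the human or rhesus arrays alone. TMPRSS2, a membrane protease of gut and gland epithelium, was at 4.82 and 4.77 in pancreas, against 4.75 to 4.96, on human arrays and at 9.99 and 9.95, against 2.66 to 2.83, on rhesus arrays. Its differences were -0.0042 and 7.22, apart by -7.22 (adjusted p = 2.81e-15, limma). The remaining human probe sets of TMPRSS2 differed by 0.80 or less, and all 3 rhesus sets were called higher. MUC1 was apart by -5.16 and SCTR by -5.03. Among the 20 leading genes CLPS was apart by -4.68 (adjusted p = 8.90e-13, limma) and PDIA2 by -3.33 (adjusted p = 2.15e-13). SLC4A4 was apart in the other direction by 1.36 (adjusted p = 2.58e-05, limma). Whether probes that mismatch rhesus transcripts account for such gaps was not tested. TMPRSS2 was chosen after its values were seen.

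The brightest probe set did not always speak for a gene. The epithelial factor EHF was called on rhesus arrays at 7.41 and missed on human arrays at 0.99, but another of its 6 human probe sets was at 7.72 and 7.14 in pancreas, against 2.43 to 2.52, and differed by 4.94. The protease ST14 was called lower on its brightest rhesus set at -2.75, whereas the other 4 rhesus sets were higher by 1.63 to 3.32. MT1X differed by -0.77 on its brightest rhesus set and by 3.66, 4.07 and 5.76 on the other 3. These 3 genes were chosen after their values were seen.

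A small number of genes, 67 of 11956, were called in opposite directions on the 2 array types. The 5 with the largest gap were TMC4, ENO2, TOX3, PPP1R14A and EPB41L4B. TMC4, of a family of channel-like membrane proteins, was at 7.15 and 7.47 in pancreas, against 2.03 to 2.25, on human arrays and at 4.73 and 4.51, against 4.35 to 6.79, on rhesus arrays. The differences were 5.22 and -1.12, and the other rhesus probe set of TMC4, at 7.46 and 7.81 in pancreas and 2.01 to 2.05 elsewhere, was higher by 5.60. ENO2, the enolase of neurons, was at 2.75 and 2.94 in pancreas and up to 11.87 elsewhere on human arrays, and at 10.98 and 10.90, against 7.99 to 12.35, on rhesus arrays. ENO2 has 1 probe set on each type, and the 2 sets also ranked the other sources differently. Cerebral cortex was highest (mean 11.80) and fibroblasts lowest (2.91) on human arrays. On rhesus arrays fibroblasts were highest (12.31) and cerebral cortex lowest (8.01). Whether both sets read the same transcript was not tested.

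**Figure D5:**
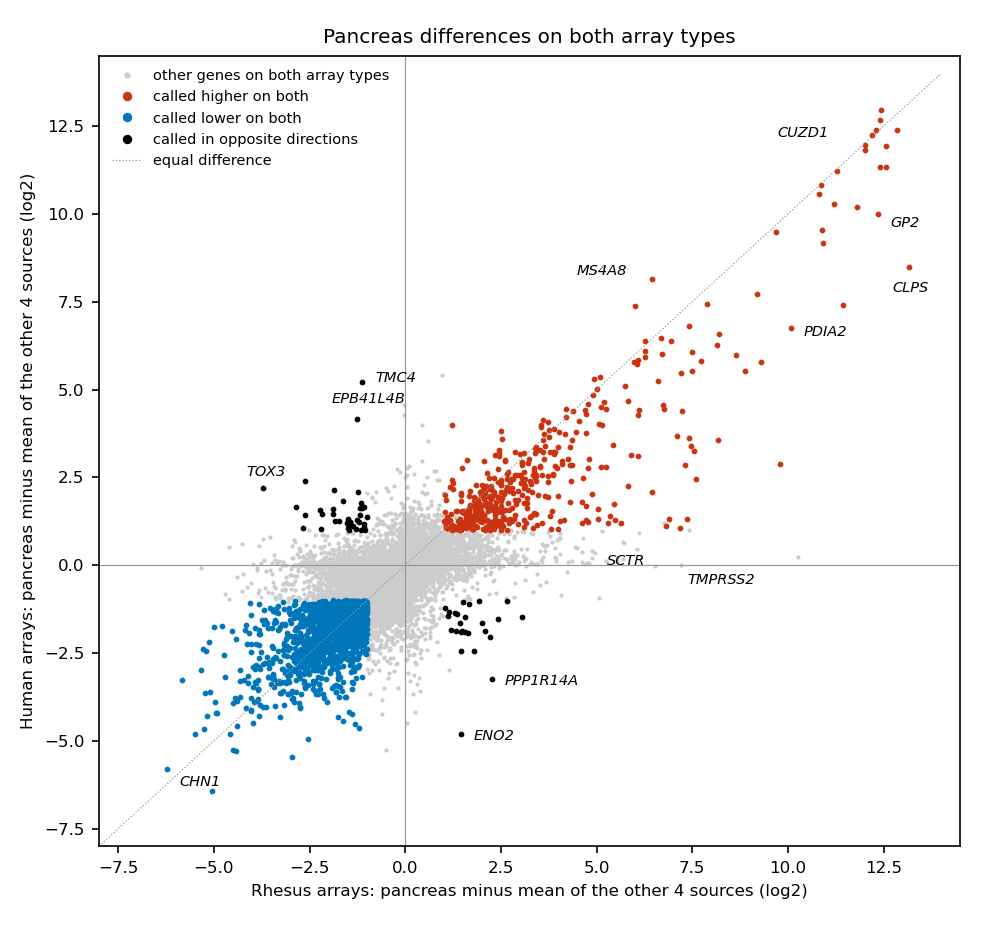
Pancreas minus the mean of the other 4 sources on human arrays (y axis, log2) against the same on rhesus arrays (x axis, log2) for the 11956 genes on both types, coloured by call. The 469 genes called higher on both spread along and below the line of equal difference, and the 67 genes called in opposite directions, ENO2 and TMC4 among them, lie in the upper left and lower right.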

How the data were processed

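Rhesus RNA of 5 sources was measured on 2 arrays per source and array type, grouped by the source named in each label and split by the table that holds the array. The authors deposited log2 expression values, 1 table per array type. RMA, which summarises the probes of a set after background correction and normalization, is the method in the submitters' processing notes. The sources used here do not give its version, nor whether all arrays went through it jointly. All value columns were used and each table was fitted by itself. Symbols were those of the platform annotation, and 24956 rhesus and 41091 human probe sets with exactly 1 symbol were used for genes. Precision is limited by the small number of arrays.

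In R 4.3.3, limma 3.58.1 (lmFit and eBayes) was fitted over the 52766 rhesus and 54613 human non-control probe sets, with 5 source means and a spread pooled over sources. The contrast was pancreas minus the mean of the other 4 source means, beside 4 pairwise contrasts, with Benjamini-Hochberg adjustment over all probe sets. The gap between array types was a contrast of both differences in 1 limma fit of genes over 20 arrays, where a constant offset of a table cancels. Lists are described by counts and medians only.

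The members and gene lists were chosen with earlier results of these data known. The text names the 20 genes higher and the 10 lower outside the digestive enzymes, ranked by the smaller of the 2 absolute differences. It also names 2 to 4 members per list by the same ranking, list members called in opposite directions, and the 5 opposite genes with the largest gap. Other names were chosen after their values were seen.

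In drawn data each probe set had 1 observed mean over all arrays and its pooled spread, so sources did not differ apart from the added changes. There 82 of 100 probe sets changed by 1.5 were recovered among the 52766 rhesus and 85 among the 54613 human probe sets. Of 100 changed by 3, 96 and 98 were recovered, with 0 wrong signs and 0 false calls. The draw gave pancreas the same spread as the other sources. Its real replicates differed more, so these counts do not measure recovery or false calls at the spread of pancreas. Alternatives were quantile normalization, subtraction of array medians or of spiked controls, dim probe sets left out, no minimum difference, array weights per source, the replicate number as a block, the average over all sets of a gene, and each array left out in turn. Same-numbered arrays of different sources did not deviate together (correlations -0.034 to 0.018, 0 of 10 pairs above 0.1 on each type).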

Additional observations from a re-analysis of the deposited data

Results flagged for a closer look

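The pancreas differences of 9 genes were called in opposite directions on the 2 array types, and the contrast of human minus rhesus was itself called by limma for each. The gap was 6.34 for TMC4 (adjusted p = 2.80e-10), from 5.22 on the human and -1.12 on rhesus arrays, and 5.90 for TOX3, a chromatin protein (adjusted p = 5.83e-09), with 2.19 and -3.71. It was 5.41 for EPB41L4B (adjusted p = 1.09e-10), with 4.15 and -1.26, and 4.52 for EEF1D, an elongation factor subunit (adjusted p = 3.16e-07), with 1.67 and -2.85. For the factor HNF4G the gap was 3.32 (adjusted p = 9.42e-11), with 2.09 and -1.23, and for villin, VIL1, it was 2.93 (adjusted p = 5.68e-08), with 1.76 and -1.17.

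The gap ran the other way for 3 genes. It was -6.25 for ENO2 (adjusted p = 8.90e-13, limma), with -4.80 on the human and 1.45 on rhesus arrays. It was -5.50 for PPP1R14A, an inhibitor of a smooth muscle phosphatase (adjusted p = 3.34e-11), with -3.23 and 2.27. It was -3.06 for the cap-binding factor EIF4E (adjusted p = 1.09e-07), with -1.64 and 1.43.

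At least 1 other rhesus probe set was called higher in pancreas for TMC4, TOX3, HNF4G and VIL1, so for these the direction on rhesus arrays depended on the probe set read. EEF1D, EIF4E, ENO2 and PPP1R14A had 1 rhesus probe set each. After quantile normalization the rhesus differences of HNF4G, VIL1 and TMC4 were -0.59, -0.46 and -0.69 and that of EIF4E on human arrays was -0.82, none of them called.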

How the results depend on the processing

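As deposited, 3677 probe sets were higher and 9280 lower on rhesus arrays, and 1692 and 5843 on human arrays. Quantile normalization changed several counts. The counts of genes higher were 2154 (rhesus), 1822 (human), 835 (both types) and 314 (above every source on both), genes lower were 2020 (human), 874 (both) and 87 (below every source on both), and human probe sets higher were 3063. With spiked controls subtracted, which lay at 11.53 and 11.64 in pancreas against 10.05 to 10.68 elsewhere on rhesus and 11.76 and 11.81 against 10.27 to 10.92 on human arrays, the median gene moved to -1.27 and -1.10. Higher and lower counts were then 1250 and 34440 rhesus probe sets, 503 and 38581 human probe sets, 538 and 9599 rhesus genes, 307 and 13907 human genes, 190 and 6929 genes on both and 94 and 1577 against every source. Without a minimum difference they were 21724 and 16899, 22499 and 11141, 4787 and 6172, 6912 and 5767, 2155 and 3350, and 610 and 642 in the same order. Averaging every set of a gene gave 624 human genes higher and 1896 lower, and 124 below every source. Of called genes 29.2% were higher on rhesus and 24.1% on human arrays as deposited, 48.8% and 47.4% with quantile normalization, 20.9% and 18.7% relative to array medians and 5.31% and 2.16% with spiked controls subtracted.

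Directions turned for 13 values of single genes. With spiked controls subtracted these were AHSG (-1.05, rhesus), AHSP (-1.06 and -1.09), ALAS2 (-1.04 and -1.04), COL1A2 (-0.0758 and -0.0826) and LEP (-1.03, human). With sets averaged they were COL1A2 (-0.0613, human) and, on rhesus arrays, HNF4G (1.44), MT1X (3.18), TMC4 (2.24) and VIL1 (0.70). The causes were not tested, apart from the construction of the alternatives.

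Leaving out each array in turn gave 1370 to 1476 rhesus and 958 to 1108 human genes higher, and 3305 to 3377 and 3068 to 3134 lower. The replicate numbers do not pair the samples. With the replicate number as a block, 3660 probe sets were higher and 9266 lower on rhesus and 1684 and 5829 on human arrays, and 4745 of 4748 rhesus and 4088 of 4103 human genes kept their call. With array weights, which gave the pancreas arrays 0.251 and 0.474, 4610 and 4029 genes kept it. With 2 arrays per source, the spread is an estimate shared by all sources.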

Other observations

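Genes outside the lists that were higher in pancreas than in every other source on both array types were ranked by the smallest pairwise difference and chosen after their values were seen, so they are given as values. A1CF, a partner of RNA editing, was at 11.44 and 11.56 in pancreas and at 2.14, 2.18 and 2.36 elsewhere on rhesus arrays, and differed by 9.30 there and 5.80 on human arrays. Fetuin FETUB differed by 7.73 and 5.81, the vitamin B12 binder TCN1 by 8.87 and 5.52, the plasma protease HABP2 by 6.59 and 5.24, regucalcin RGN by 6.26 and 6.08 and the vitamin E binder AFM by 7.42 and 3.63. DIO1, which activates thyroid hormone, differed by 4.93 and 5.29, the gap junction gene GJB1 by 6.72 and 4.55, and FGF21, a hormone made by liver and acinar cells, by 3.38 and 3.18. PDK4, which slows the use of glucose as fuel, was at 9.33 and 9.26 in pancreas, against 3.48, 4.18 and 5.52, on rhesus arrays and at 8.39 and 8.31, against 2.81, 3.28 and 4.38, on human arrays. IFRD1, a transcription regulator, differed by 4.78 and 4.58.

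Of genes outside the lists that were lower than every source, MCM4, of the replication helicase, differed by -4.16 and -4.05, the factor KLF12 by -4.41 and -3.85 and the CTP synthase CTPS1 by -5.20 and -2.45. HSPH1, a heat shock protein of the cytosol, was at 6.54 and 6.79 in pancreas, against 9.85, 10.33 and 11.69, on rhesus arrays and at 5.79 on both human pancreas arrays, against 8.81, 9.34 and 11.25. ZEB1, a repressor of epithelial genes, differed by -2.88 and -2.70, and AP1S2, a vesicle coat subunit, by -3.85 and -3.56. All were called after quantile normalization too.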
